A study of Mus musculus with 2 samples.

Results

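The 10 CC chemokine genes Ccl2, Ccl7, Ccl8, Ccl12, Ccl3, Ccl4, Ccl5, Ccl6, Ccl9 and Ccl22 were taken by gene symbol from the 32285 genes measured in immune cells of wild-type mouse pancreatic islets, and each symbol stood for 1 gene identifier. The cells came from the islets of 6 to 8 male C57BL/6J mice, which were pooled and dissociated, and live CD45+ cells that lacked the epithelial marker Epcam were sorted. The mice are labelled WT, the design text calls them myeloid WT without naming an allele, and the sources used here do not give their age. They form 1 sample read as 2 libraries, one of mRNA and one of tags from DNA-barcoded antibodies against CD9, a tetraspanin membrane protein, and CD206, the macrophage mannose receptor. No mouse was kept apart, so no difference below has a replicate check, no test was made, and every interval is a 95% interval that covers counting error only. Both libraries were given on the same 2237 barcodes, and all groups are groups of these cells.

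CC chemokines are small secreted proteins with a pair of adjacent cysteines near their amino end, and they steer leukocytes through G protein-coupled receptors of the Ccr family. Tissue macrophages are a known source of them, and several are switched on by NF-kB signalling or by interferons. Ccl2, Ccl7 and Ccl12 draw monocytes that carry Ccr2, and Ccl8 acts on Ccr8 in the mouse. Ccl3 and Ccl4, the macrophage inflammatory proteins, draw monocytes, T cells and NK cells, and Ccl3 acts through Ccr1 among others. Ccl5 also acts on Ccr1 and is a product of activated T and NK cells as well as of myeloid cells. Ccl6 and Ccl9 are rodent ligands of Ccr1, and Ccl22 is a ligand of Ccr4 best known from dendritic cells.

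Of the 10 genes, 9 lie on mouse chromosome 11 in GRCm38.p6, the RefSeq assembly that corresponds to the mm10 build of the files. Ccl2, Ccl7, Ccl12 and Ccl8 span chr11:82035577-82116799, and Ccl5, Ccl9, Ccl6, Ccl3 and Ccl4 span chr11:83525778-83664683. Ccl22 lies apart at chr8:94745684-94751388. The RefSeq spans of Ccl3 and Ccl4 overlap by 755 bases. The counts carry Ensembl gene identifiers, and whether those gene models overlap was not examined. The sources used here do not say whether the deposited counts used strand, so reads from any overlap cannot be assigned with certainty. RefSeq promoters were at hand for 6 of the 10 genes. The 250 bases before the gene start are shown, 5′ to 3′ along the gene, for 3 genes, Ccl3, Ccl12 and Ccl6. In the macrophages described below, Ccl3 went most with NF-kB response genes, and the genes most like Ccl12 were interferon response genes. These 2 do not divide by list, because the correlation with interferon response genes was 0.41 for Ccl3 and 0.30 for Ccl12. Ccl6 went with neither list. Capitals mark the TATA box letters TATAAA, which of these 3 the Ccl12 window alone held.
Ccl3: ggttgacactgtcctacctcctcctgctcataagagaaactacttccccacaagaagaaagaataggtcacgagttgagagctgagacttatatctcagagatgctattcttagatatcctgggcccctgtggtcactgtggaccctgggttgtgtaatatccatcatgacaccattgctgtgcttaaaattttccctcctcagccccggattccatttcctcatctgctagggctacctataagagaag
Ccl12: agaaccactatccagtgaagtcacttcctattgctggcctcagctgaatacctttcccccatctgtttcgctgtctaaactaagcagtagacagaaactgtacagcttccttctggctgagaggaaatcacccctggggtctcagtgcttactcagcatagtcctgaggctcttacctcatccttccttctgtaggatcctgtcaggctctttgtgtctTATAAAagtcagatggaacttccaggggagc
Ccl6: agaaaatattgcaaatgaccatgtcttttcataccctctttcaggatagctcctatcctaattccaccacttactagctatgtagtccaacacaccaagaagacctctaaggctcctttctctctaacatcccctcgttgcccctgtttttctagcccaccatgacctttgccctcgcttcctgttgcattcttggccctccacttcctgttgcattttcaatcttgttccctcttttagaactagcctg
These windows are chr11:83649379-83649628 on the minus strand for Ccl3, chr11:82101595-82101844 on the plus strand for Ccl12 and chr11:83593088-83593337 on the minus strand for Ccl6. Each of the 6 windows was searched on both strands for a kappaB motif (GGGA and TTTCC, 1 base apart), an interferon-stimulated response element (GAAA and GAAA, 2 bases apart), an AP-1 motif (TGANTCA) and the TATA box. No window held the first 2 motifs in these letters. Of the same windows of all 32851 RefSeq promoters, 0.356% held the kappaB letters and 2.98% the interferon element. At shares this low, finding none in 6 windows is unremarkable and sets these genes apart from no others. Ccl2, Ccl4, Ccl5 and Ccl7 were not among the 6. The TATA box letters stood 31 to 26 bases before the start of Ccl12 and 32 to 27 bases before that of Ccl8, and 12.4% of all windows held them on either strand. The Ccl9 window held both the AP-1 letters, 53 to 47 bases before the start, and the TATA box letters, and 6.75% of all windows held the AP-1 letters. A match or its absence describes these letters in this window only.

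Macrophages were the cells in which C1qa, C1qb and C1qc, the complement genes that mark tissue macrophages, together reached 2000 CPM, the UMIs of a gene per 1000000 UMIs of the cell or class. A UMI is a molecular identifier that counts an mRNA molecule once. Of 2175 kept cells, 1792 (82.4%) were macrophages, 140 were lymphocytes (87 T, 25 NK and 28 B cells), 45 were dendritic cells and 21 were monocytes by their own marker lists, and 177 met no rule. These classes are ranges of marker sums and their names mean "macrophage-like" and so on. Between 1600 and 2500 CPM, near the C1q limit, lay 50 kept cells. In the macrophages 7 of 8 further macrophage markers were found in at least 25% of cells. So were 6 of these 8 in monocytes, 5 in the cells that met no rule, 3 in dendritic cells and 1 in lymphocytes. In the dendritic cells 7 of their 9 markers were, but these 9 defined the class, so this is no separate check. The median depth was 20200 UMIs in macrophages, 9372 in lymphocytes and 24262 in dendritic cells. Summed over cells this gave 36443091 UMIs in macrophages, 1409466 in lymphocytes and 1208980 in dendritic cells. Because depth changes the share of cells with a UMI, such shares are given after each cell was thinned at random to 5000 UMIs, which left 1669 macrophages, 128 lymphocytes and 43 dendritic cells.

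Macrophages carried most of this family. The 10 genes together made up 0.623% of all macrophage UMIs. Called at a ratio of 1.5 with at least 20 UMIs in the 2 sums, 8 of the 10 genes were higher in macrophages than in lymphocytes, where 19% of 13278 genes were, and 1 was lower, where 49.6% were. Their median log2 ratio was 4.87, beside -0.72 over all genes compared, with a sum of 0 set to 3 UMIs. Some of these ratios are thus bounds. A gene with no lymphocyte UMI could even fall below 0, as Ccr3 did with 25 macrophage UMIs (log2 ratio -1.63). Against dendritic cells 8 of 10 were again higher, where 18.7% of 13097 genes were, and 1 was lower, where 30.4% were, with a median log2 ratio of 2.24 beside -0.31. Ccl5 was the gene lower in macrophages than in lymphocytes, and Ccl22 the gene lower than in dendritic cells. Ccl8 was not called in either comparison. The shares over all genes are not matched for level. They include genes from 20 UMIs up, and a gene with few macrophage UMIs and none in the other class could not be called higher. Ccl8, with 104 macrophage UMIs, was such a gene.

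**Figure D1:**
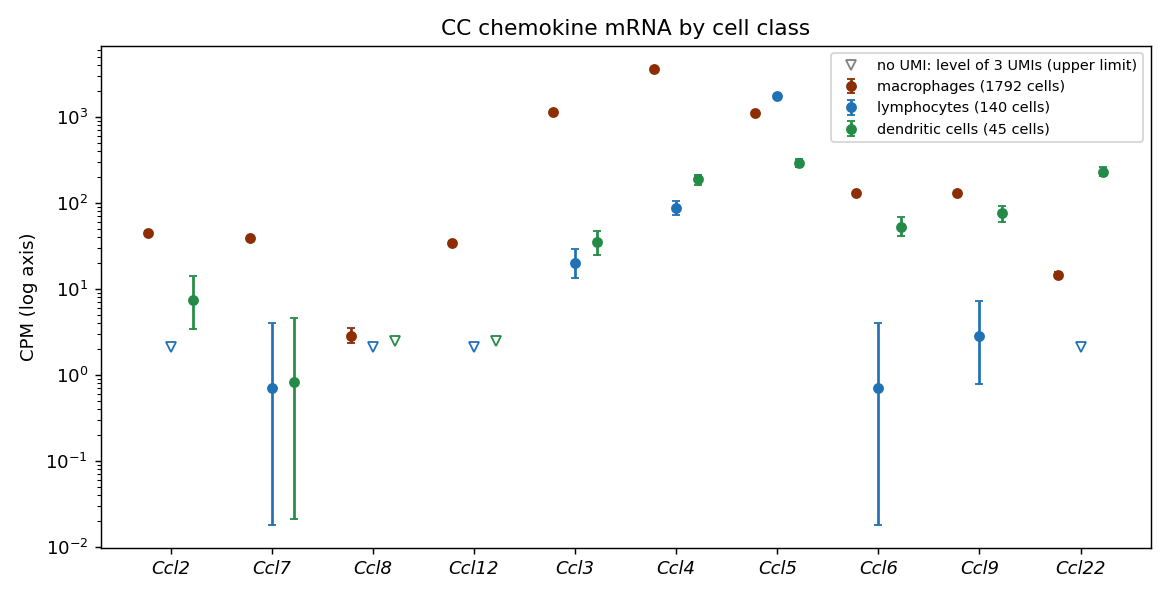
Level in CPM (log axis) of the 10 CC chemokine genes summed over macrophages, lymphocytes and dendritic cells, with exact Poisson 95% intervals for counting error. Open triangles stand at the level of 3 UMIs where a class had none. Ccl5 is highest in lymphocytes and Ccl22 in dendritic cells, and the others are highest in macrophages except Ccl8, whose level there is close to the triangles of the other classes.

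Ccl2, Ccl7, Ccl12 and Ccl8 had few or no UMIs in lymphocytes and dendritic cells. Ccl2 had 1622 UMIs (44.5 CPM) in macrophages, none in lymphocytes and 9 UMIs (7.44 CPM) in dendritic cells, 7 of the 9 in a single cell. That is at least 20.9-fold higher than in lymphocytes, computed against a floor of 3 UMIs over the class, and 5.98-fold higher (3.14 to 13.1) than in dendritic cells. Ccl7 had 1404 UMIs (38.5 CPM) in macrophages and 1 UMI each in lymphocytes and dendritic cells, a ratio of 54.3 (9.73 to 2146) to lymphocytes and of 46.6 (8.35 to 1841) to dendritic cells. Ccl12 had 1246 UMIs (34.2 CPM) in macrophages and none in the other 2 classes, at least 16.1-fold higher than in lymphocytes and at least 13.8-fold higher than in dendritic cells. Ccl8 had 104 UMIs (2.85 CPM) in macrophages and none in lymphocytes or dendritic cells, which bounds its ratios at 1.34 and 1.15 only. The cells that met no class rule had 258 Ccl2 UMIs, 253 of them in 1 cell, and 30 Ccl7 UMIs, 28 of them in 1 cell. No lymphocyte out of 140 had a UMI of Ccl2, Ccl8, Ccl12 or Ccl22, which, at a floor of 3 cells, allows a share of up to 2.14% of cells with a UMI. Of thinned macrophages 10.2% had a UMI of Ccl2, 5.93% one of Ccl7, 7.31% one of Ccl12 and 0.180% one of Ccl8.

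Ccl3 and Ccl4 were present in most macrophages. Ccl3 reached 1129.9 CPM in macrophages, 19.9 CPM in lymphocytes and 34.7 CPM in dendritic cells, 56.9-fold (39.3 to 85.6) higher in macrophages than in lymphocytes and 32.5-fold (24.1 to 45.1) higher than in dendritic cells. Ccl4 reached 3611 CPM in macrophages, 88.0 CPM in lymphocytes and 186.9 CPM in dendritic cells, 41.0-fold (34.4 to 49.4) higher than in lymphocytes and 19.3-fold (16.9 to 22.1) higher than in dendritic cells. At 5000 UMIs per cell 67.8% of macrophages and 13.3% of lymphocytes had a UMI of Ccl3, and 81.1% of macrophages and 31.2% of lymphocytes one of Ccl4. Before thinning, 83.3% of macrophages and 18.6% of lymphocytes had a Ccl3 UMI, and 92.9% of macrophages and 48.6% of lymphocytes a Ccl4 UMI. In lymphocytes 25 of the 124 Ccl4 UMIs lay in 1 cell of the B class, and in dendritic cells 100 of 226 Ccl4 UMIs and 21 of 42 Ccl3 UMIs lay in 1 cell.

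Ccl5 ran the other way between macrophages and lymphocytes. It had 1096 CPM in macrophages, 1762 CPM in lymphocytes and 292 CPM in dendritic cells, so macrophages were at 0.62 times the lymphocyte level (0.60 to 0.65) and 3.75 times the dendritic level (3.38 to 4.18). Within lymphocytes it had 1990 CPM in T cells, 3037 CPM in NK cells and 10.3 CPM, from 3 UMIs, in B cells. After thinning a Ccl5 UMI was found in 45.5% of macrophages, against 57.6% of 85 T cells, 95% of 20 NK cells and 4.35% of 23 B cells. NK and T cells thus stood above macrophages in level, and B cells far below them.

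Ccl6 and Ccl9, the Ccr1 ligands, were shared by the myeloid classes and near absent from lymphocytes. Ccl6 had 129 CPM in macrophages, 0.71 CPM (1 UMI) in lymphocytes and 52.9 CPM in dendritic cells, 181-fold (32.5 to 7157) and 2.43-fold (1.90 to 3.16) higher in macrophages. Ccl9 had 129.8 CPM in macrophages, 2.84 CPM (4 UMIs) in lymphocytes and 75.3 CPM in dendritic cells, 45.7-fold (17.8 to 167.9) and 1.72-fold (1.40 to 2.15) higher in macrophages. With each cell weighted equally, the log2 ratio of Ccl9 to dendritic cells was 0.52, below the limit for a call. Against the 21 monocytes, 6 of the 10 genes were higher in macrophages, where 14.2% of 13058 genes were, and 3 were lower, where 32.7% were. Ccl6 was one of these 3, with 129 CPM in macrophages and 401 CPM in monocytes, a ratio of 0.32 (0.27 to 0.38). Of its 137 monocyte UMIs 42 lay in 1 cell. After thinning a Ccl6 UMI was found in 50% of 20 monocytes (27.2 to 72.8) and in 42.8% of macrophages. The other two, Ccl2 and Ccl7, had 67 of their 71 and 67 of their 69 monocyte UMIs in 1 cell.

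Ccl22 was the member that stood higher in dendritic cells. It had 14.5 CPM in macrophages, none in lymphocytes and 229 CPM in dendritic cells, so the macrophage level was 0.063 times the dendritic one (0.055 to 0.074). Of 43 thinned dendritic cells 41.9% had a Ccl22 UMI, and 60 of the 277 UMIs lay in 1 cell. Of the 45 dendritic cells 6 had a marker sum between 500 and 625 CPM, just above the limit.

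C1q stood at 7076 CPM in macrophages, 66.0 CPM in lymphocytes and 73.6 CPM in dendritic cells, where the rule for macrophages keeps it low. Per 100 C1q UMIs, Ccl3 had 16.0 UMIs in macrophages, 30.1 (19.0 to 46.4) in lymphocytes and 47.2 (31.9 to 68.8) in dendritic cells. Ccl4 had 51.0 UMIs per 100 of C1q in macrophages, 133 (101.1 to 176) in lymphocytes and 254 (198 to 328) in dendritic cells. Ccl5 had 15.5 UMIs per 100 of C1q in macrophages and 2670 (2170 to 3320) in lymphocytes, and Ccl22 had 0.206 in macrophages and 311 (244 to 400) in dendritic cells. Endocrine hormone RNA, from islet cells, was at 2929 CPM in macrophages, 1012 CPM in lymphocytes and 840 CPM in dendritic cells. The part of free RNA in the levels of lymphocytes and dendritic cells was not tested.

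Of the other CC ligands on the list, 5 of 10 reached 20 UMIs in any class. Ccl17, which like Ccl22 acts on Ccr4, had 16 UMIs in macrophages, 1 in lymphocytes and 40 in dendritic cells. Ccl1, a ligand of Ccr8, had 33 UMIs in T cells and none in macrophages. Ccl25 had 16.8 CPM (611 UMIs) in macrophages and 29.1 CPM (41 UMIs) in lymphocytes, a ratio of 0.58 (0.42 to 0.81). Ccl27a had 56 UMIs in macrophages and 1 in lymphocytes. Ccl19, a ligand of Ccr7, reached 25 UMIs in the cells that met no class rule. Of the 15 receptors, 8 could be compared between macrophages and lymphocytes, and 2 were higher in macrophages, where 19% of all genes compared were, and 4 were lower, where 49.6% were, which are shares near the background. Ccr1, a receptor for Ccl3, Ccl5, Ccl6 and Ccl9, had 114.5 CPM in macrophages, 4.26 CPM in lymphocytes and 91.8 CPM in dendritic cells. Ccr2, the receptor for Ccl2, Ccl7 and Ccl12, had 28.9 CPM in macrophages, 175 CPM in lymphocytes and 51.3 CPM in dendritic cells. In monocytes it had 293 CPM, with 48 of its 100 UMIs in 1 cell. Within lymphocytes it had 437 CPM in NK cells, 159 CPM in T cells and 3.43 CPM (1 UMI) in B cells. Ccrl2, an atypical receptor, had 282 CPM in macrophages, 51.8 CPM in lymphocytes and 49.6 CPM in dendritic cells. Ccr7, which guides dendritic cells to lymph nodes, had 19.2 CPM in macrophages and 512 CPM in dendritic cells. Ccr6 had 11 UMIs in macrophages and 78 in lymphocytes, 70 of them in B cells, and Ccr9 had 72 UMIs in macrophages and 78 in monocytes, all 78 in 1 cell. Ccr3 had 25 UMIs in macrophages, and the scavengers Ackr1 and Ackr3 had 61 and 117 UMIs in the cells that met no class rule.

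The genes differed widely in how evenly macrophages shared their UMIs. For 5 of the 10, namely Ccl2, Ccl7, Ccl8, Ccl12 and Ccl22, at most 5% of macrophages held 50% of the UMIs, as they did for 27.5% of the 9883 genes with at least 100 UMIs in macrophages. Ccl7 had that share of its UMIs in 13 of the 1792 macrophages, Ccl12 in 17, Ccl2 in 34 and Ccl22 in 42. The 2 cells with the most Ccl7 UMIs had 201 and 76 of the gene's 1404, and the 2 with the most Ccl12 UMIs had 102 and 88 of 1246. For Ccl8, 1 macrophage alone had 91 of the 104 UMIs, and only 9 had any. Without that cell 13 Ccl8 UMIs remain. With 104 UMIs Ccl8 met the 5% rule by its count alone, because 50% of its UMIs could not fill 5% of macrophages. The 27.5% was taken over genes from 100 UMIs up and is not matched for level.

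The other 5 genes were spread more widely, yet less evenly than common macrophage genes. The cells that held 50% of the UMIs numbered 143 for Ccl3, 152 for Ccl4, 130 for Ccl5, 157 for Ccl9 and 272 for Ccl6. The median over all genes compared was 8.87% of cells, which 143 to 157 cells, 7.98% to 8.76%, came close to. By the same measure C1qa took 500 cells and the actin gene Actb 506. Cxcl2 and Tnf, the inflammatory genes set beside the family, took 150 and 204. In single cells Ccl4 ran up to 1324 UMIs with a median of 15.5, Ccl3 up to 518 with a median of 6, and Ccl5 up to 460 with a median of 1. Ccl6 ran up to 35 UMIs only, with a median of 2 and a 90th percentile of 6, and 399 macrophages had exactly 1.

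**Figure D2:**
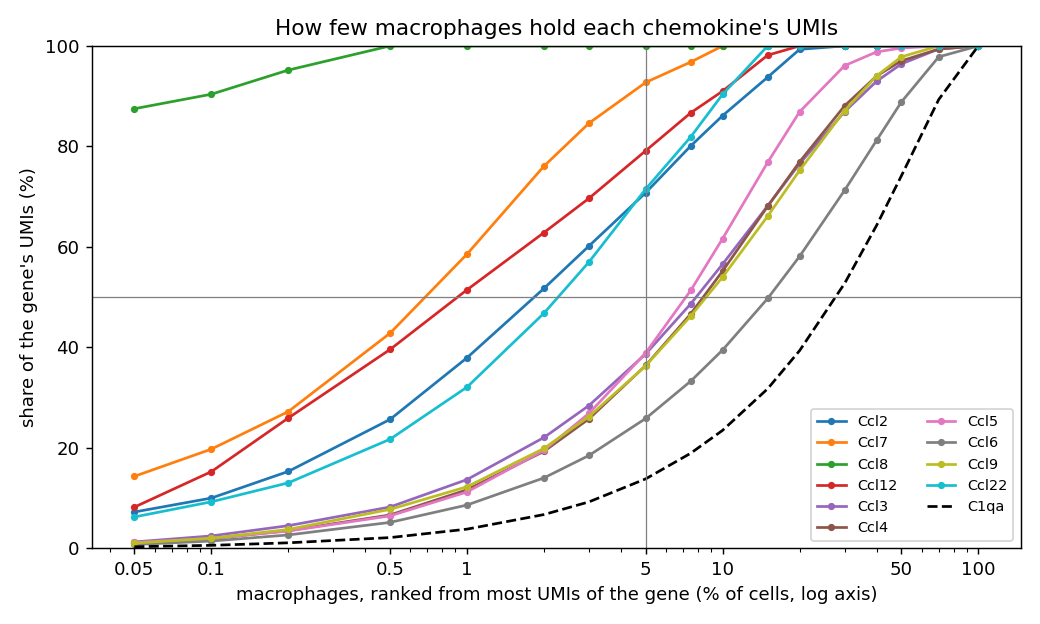
Share of each gene's UMIs (vertical axis, %) held by the macrophages with the most UMIs of that gene (horizontal axis, % of 1792 macrophages, log axis), with C1qa as a dashed line. The grey lines mark 50% of UMIs and 5% of cells. Ccl8, Ccl7, Ccl12, Ccl2 and Ccl22 pass 50% of UMIs within 5% of cells, and Ccl6 is the member nearest to C1qa.

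Most macrophages carried several members at once. At 5000 UMIs per cell, 65 of 1669 macrophages had none of the 10, 200 had 1, 357 had 2, 453 had 3, 369 had 4, 162 had 5, 44 had 6, 17 had 7 and 2 had 8. Ccl3 and Ccl4 went together most. Pearson's r of log2(CPM/100 + 1) over the 1792 macrophages was 0.74 for this pair, and a Ccl4 UMI was found in 90.4% of 1132 thinned macrophages with Ccl3 (88.5 to 92.0) and in 61.5% of 537 without (57.2 to 65.6). Among the 90 macrophages highest in each, 45 were shared. The shares depend on the thinning depth, with 84.1% at 2000 UMIs and 94.7% at 10000 UMIs for macrophages with Ccl3. Correlations between these cells share 1 library, 1 sort and a common depth, and the members' own r with log2 depth ran from -0.06 to 0.19.

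Ccl5 went with Ccl4 more than with Ccl3. Its r was 0.58 with Ccl4 and 0.28 with Ccl3, and of its 90 highest macrophages 18 were among the highest for Ccl4 and 6 among the highest for Ccl3. Ccl2 and Ccl7, whose genes are neighbours, had an r of 0.38, and a Ccl7 UMI was found in 21.6% of thinned macrophages with Ccl2 and in 4.14% of those without. Ccl2 had an r of 0.31 with Ccl4, and Ccl12 an r of 0.31 with Ccl3. Ccl6 had a low r with all others, between -0.04 and 0.10, and 43.2% of macrophages with Ccl3 and 41.9% of those without had a Ccl6 UMI. Ccl8, with few UMIs, also had a low r with all others, between -0.01 and 0.14. Ccl6 had a median of 2 UMIs per macrophage, and how far such low counts limit its r was not tested. Its nearest neighbours on the chromosome, Ccl9 and Ccl3, were no exception, with r of 0.10 and -0.01. Over the 8 members with at least 1000 macrophage UMIs, the median r was 0.26 for the 3 pairs within the group at Ccl2, 0.12 for the 10 pairs within the group from Ccl5 to Ccl4, and 0.19 for the 15 pairs between the groups.

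**Figure D3:**
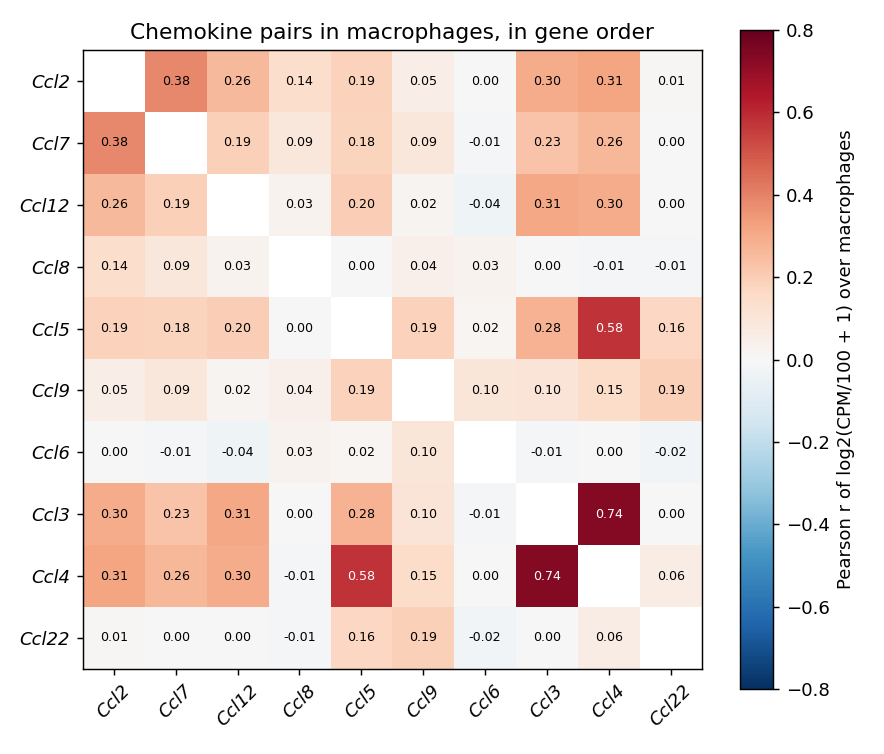
Pearson's r between CC chemokine genes over 1792 macrophages, on log2(CPM/100 + 1), with the genes in their order along chromosome 11 and Ccl22 last. Ccl3 with Ccl4 (0.74) and Ccl4 with Ccl5 (0.58) stand out, and the row of Ccl6 is close to 0.

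The members differed in which response genes went with them. Over macrophages the r of Ccl3 was 0.57 with the summed level of 12 NF-kB response genes, such as Tnf, Il1b and Nfkbia, 0.46 with 10 immediate-early genes and 0.41 with 10 interferon response genes, such as Ifit1, Isg15 and Cxcl10. Ccl5 had r of 0.12 with the NF-kB list, 0.01 with the immediate-early list and 0.71 with the interferon list. Ccl4 stood between them with 0.43 for NF-kB, 0.35 for immediate-early and 0.70 for interferon. Ccl12 had 0.30 with the interferon list and 0.14 with NF-kB, and Ccl6 had between -0.09 and -0.03 with all 4 lists, the fourth being heat shock genes. None of the lists holds a CC chemokine, but the NF-kB list holds Cxcl1 and Cxcl2 and the interferon list Cxcl10. As sums, the lists are weighted toward their most abundant genes. In macrophages Cxcl2 had 128836 UMIs and Tnf 17403, and the r of Ccl3 with Cxcl2 alone was 0.51. The NF-kB and interferon lists had an r of 0.24 with each other.

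Of 4498 genes compared, those most like Ccl3 were Ccl4, then Ppp1r15a (r = 0.55) and Csrnp1 (r = 0.52). Those most like Ccl4 were Ccl3, then the interferon-induced Cxcl10 (r = 0.66) and Oasl1 (r = 0.64), and those most like Ccl5 were the interferon-induced Rsad2, Ifit1 and Cxcl10 (r = 0.68 each). For Ccl12 they were Ifit3 (r = 0.36), Cmpk2 (r = 0.34) and Ifit2 (r = 0.33). No gene reached an r of 0.3 with Ccl6 or Ccl9. Likeness here is over cells of 1 sample and is a description only.

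The macrophages were also split at the median of each list, a split chosen after the data were seen. It uses the same cells and list sums as the r values, so it gives those relations as levels and is no separate check. Ccl5 had 1802 CPM in the 513 macrophages high for both lists and 2203 CPM in the 383 high for interferon alone, against 108 CPM in the 383 high for NF-kB alone and 115 CPM in the 513 low for both. Its level thus went with the interferon list whatever the NF-kB list did. Ccl3 had 2282 CPM where both were high, 1012 CPM with NF-kB alone, 635 CPM with interferon alone and 253 CPM where both were low. Ccl4 had 7841 CPM where both were high, 1126 CPM with NF-kB alone, 3735 CPM with interferon alone and 470 CPM where both were low. Ccl7 had 85.8 CPM where both were high, 17.7 CPM with NF-kB alone, 32.7 CPM with interferon alone and 3.72 CPM where both were low. Ccl12 had 74.4 CPM where both were high and 3.29 CPM where both were low. With NF-kB alone Ccl12 had 160 UMIs and with interferon alone 220 UMIs, in 383 macrophages each. Ccl7 and Ccl12 each had most of their UMIs in few cells as above. Ccl6 had 116 CPM where both were high and 145 CPM where both were low. Median depth was 21390 UMIs in the macrophages high for both and 18430 UMIs in those low for both.

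**Figure D4:**
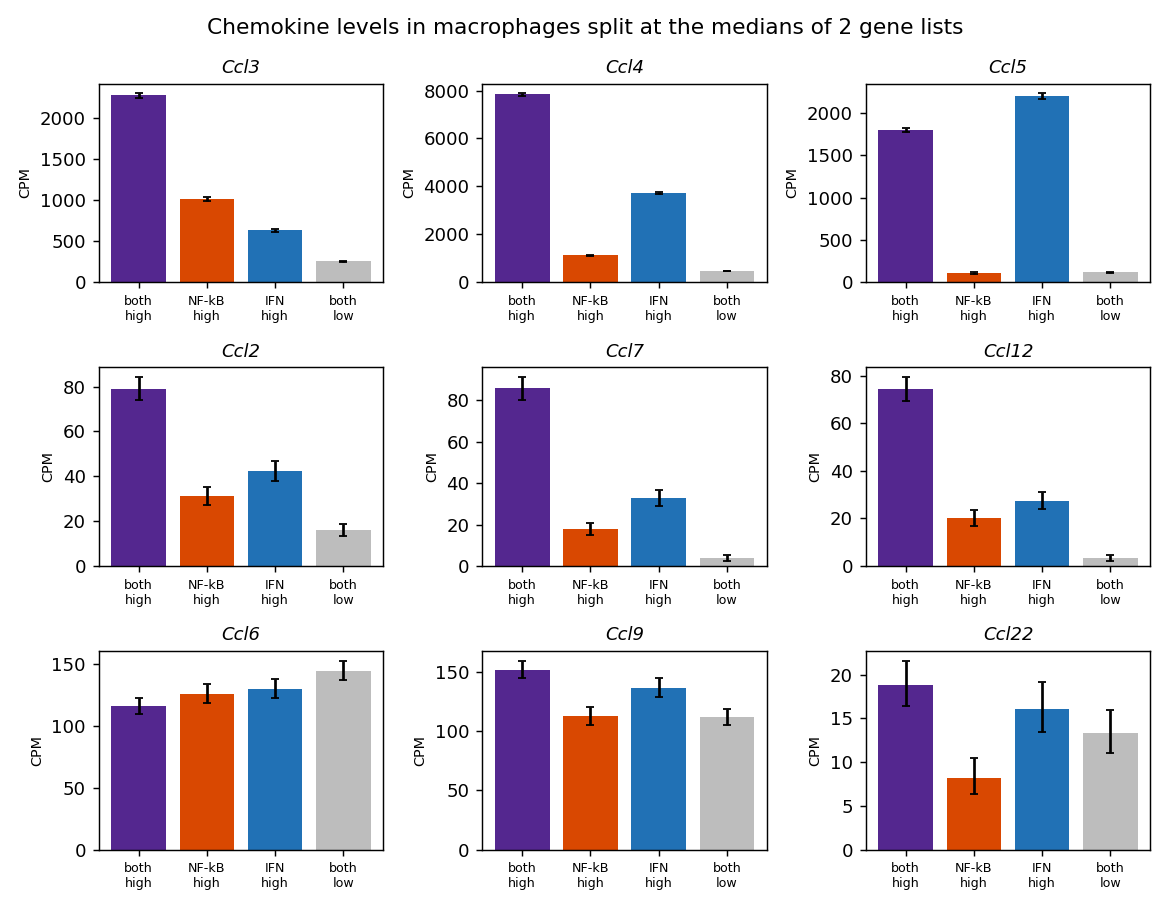
Levels in CPM of 9 CC chemokine genes in macrophages split at the median of an NF-kB response list and an interferon (IFN) response list, with exact Poisson 95% intervals for counting error. Each bar starts at 0. Ccl5 is high in both interferon-high groups, Ccl3 and Ccl4 are highest where both lists are high, and Ccl6 differs little.

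Macrophages bound very different amounts of the CD9 antibody, whose tag is the 15-base barcode below, shown because it is the readout that orders the cells here.
CD9 tag: tagcagtcactccta
Macrophages were ranked by CD9 tag within deciles of their RNA depth, and the highest 3 deciles (CD9-high, 540 cells, median 3251.5 tags, median 20201.5 RNA UMIs) were compared with the lowest 3 (CD9-low, 540 cells, median 45 tags, median 20209 RNA UMIs). These groups are ranges of a continuous value, with 360 macrophages ranked within 5 points of a group's edge. The mRNA of Cd9 itself followed the tag, at 12.7 CPM in the lowest decile and 427 CPM in the highest.

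Ccl3 and Ccl4 were lower on CD9-high macrophages. Of 9 members with enough UMIs, none was called higher in CD9-high macrophages, where 12.1% of 11918 genes were, and 4 were called lower, where 5.72% were. The median log2 ratio was -0.47 for these members and 0.09 for all genes compared. Ccl3 was at 731 CPM on CD9-high macrophages and 1572 CPM on CD9-low ones, a ratio of 0.46 (0.45 to 0.48). In deciles 1 to 10, from the lowest tag to the highest, it had 1827, 1559, 1333, 994, 1408, 1215, 892, 773, 544 and 866 CPM. Ccl4 was at 2752 CPM on CD9-high macrophages and 4938 CPM on CD9-low ones, a ratio of 0.56 (0.55 to 0.57), and 5681, 5041, 4101, 3001, 4021, 3498, 2778, 3326, 1983 and 2936 CPM in deciles 1 to 10. Neither series fell at every step, and both had their lowest level in decile 9. After thinning, 55.3% of CD9-high (50.9 to 59.6) and 77.1% of CD9-low macrophages (73.1 to 80.7) had a Ccl3 UMI, and 75.6% of CD9-high (71.6 to 79.2) and 88.1% of CD9-low (85.0 to 90.8) had a Ccl4 UMI. The 90 macrophages highest in Ccl3 had a median of 115 CD9 tags, not ranked within depth, against 579 in the other 1702.

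The calls for Ccl7 and Ccl12 rested on few cells. Ccl7 had 228 UMIs in CD9-high and 609 UMIs in CD9-low macrophages, a ratio of 0.35 (0.30 to 0.40), but 201 of the 609 lay in 1 cell, and without the 1% of macrophages with the most Ccl7 UMIs, a setting added after the data were seen, its log2 ratio was -0.06 instead of -1.53. Its thinned shares were 5.27% of CD9-high (3.50 to 7.58) and 6.64% of CD9-low macrophages (4.61 to 9.20), which overlap. Ccl12 had 325 UMIs in CD9-high and 516 in CD9-low macrophages, a ratio of 0.58 (0.51 to 0.67), and without its top cell the log2 ratio was -0.46, which ends the call, as did a ranking without regard to depth (-0.02). Its thinned shares were 5.66% of CD9-high (3.83 to 8.03) and 8.25% of CD9-low macrophages (5.98 to 11.03), which overlap. The lower calls of Ccl3 and Ccl4 held in all 11 alternatives run on this comparison.

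The remaining members differed by less than 1.5-fold. Ccl5 had a ratio of 1.07 (1.05 to 1.10), Ccl6 0.95 (0.88 to 1.02), Ccl2 0.87 (0.76 to 1.001), Ccl9 0.72 (0.67 to 0.78) and Ccl22 1.40 (1.12 to 1.75). Ccl8 had 1 UMI in CD9-high and 5 in CD9-low macrophages and was not compared. Ccl9 was called lower between the highest and the lowest decile alone, with a log2 ratio of -0.92. The 90 macrophages highest in Ccl5 had a median of 1063 CD9 tags, against 528 in the other 1702. They had more CD9 tag than the other macrophages, where the highest Ccl3 macrophages had less than the others. The 90 highest in Ccl6, which had a ratio of 0.95, also had less, with a median of 119.5 tags against 566. These tags are not ranked within depth. Median depth was 18739.5 RNA UMIs in the highest Ccl3, 21885 in the highest Ccl5 and 14333 in the highest Ccl6 macrophages. Of the 6 receptors that could be compared, Ccr2, Ccr7 and Ccr9 were higher in CD9-high macrophages, where 12.1% of all genes compared were, and none was lower, where 5.72% were. Ccr2 was at 37.5 CPM on CD9-high macrophages and 9.18 CPM on CD9-low ones, a ratio of 4.09 (3.28 to 5.15).

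Other lists moved with the tag. The NF-kB list was at 6299 CPM for CD9-high cells against 9481 CPM for CD9-low cells, and the interferon list at 5540 CPM for CD9-high cells against 6270 CPM for CD9-low cells. Hormone RNA of endocrine cells was at 2392 CPM for CD9-high cells against 3754 CPM for CD9-low cells, and 5 of its 6 genes were found in at least 25% of all macrophages. Marker sums of dendritic cells were 40.8 CPM for CD9-high cells against 22.2 CPM for CD9-low cells, and those of monocytes 20.7 CPM for CD9-high cells against 11.2 CPM for CD9-low cells, with none of the 9 and 8 genes in 25% of macrophages. Their part in the chemokine ratios was not tested.

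**Figure D5:**
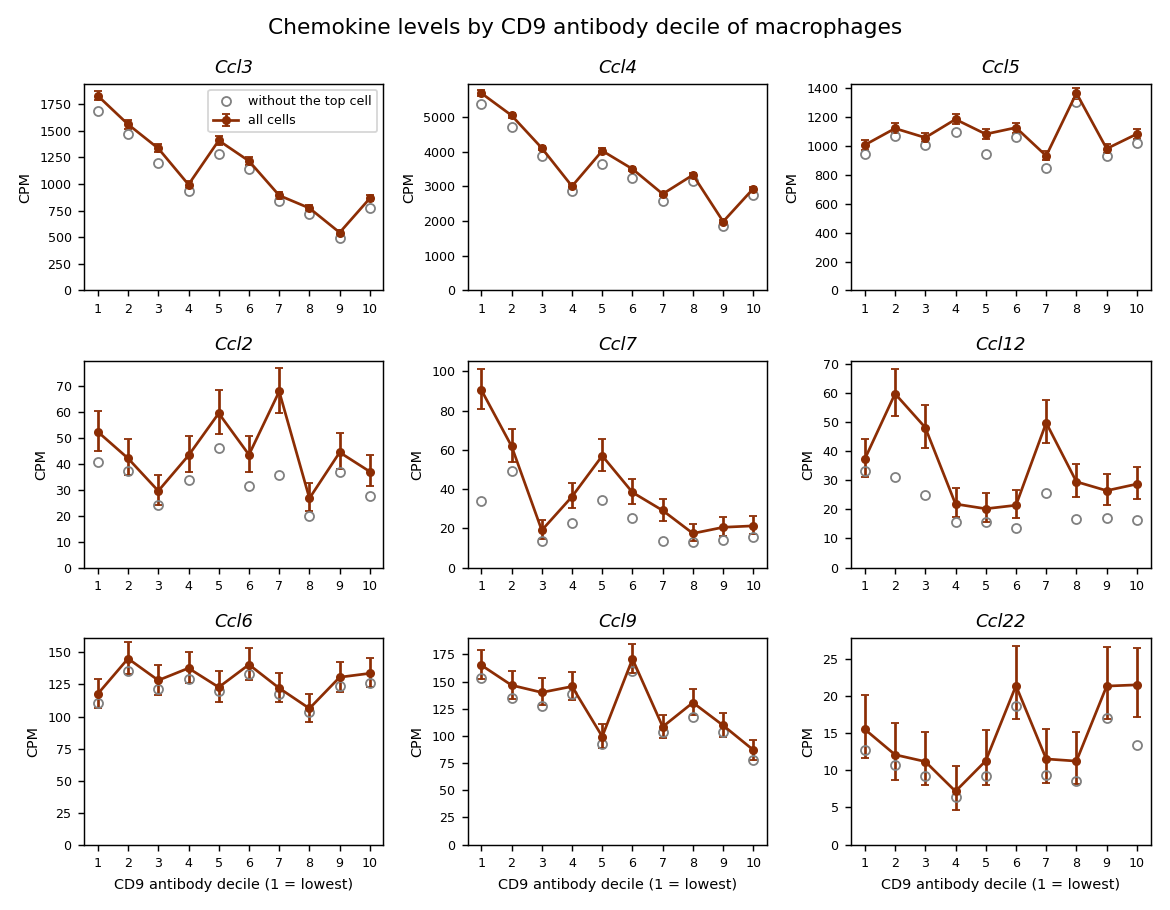
Levels in CPM of 9 CC chemokine genes in macrophages by decile of CD9 tag ranked within RNA depth (1 is the lowest), with exact Poisson 95% intervals for counting error and, in grey, the level without the decile's top cell. Ccl3 and Ccl4 are lower at the high end, Ccl5 and Ccl6 are nearly level, and the points of Ccl7 and Ccl12 shift most when 1 cell is left out.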

How the data were processed

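The deposited values were UMI counts per gene or antibody tag and barcode, and the file headers name Cell Ranger 8.0.1 as the authors' counting tool, with the mm10 build, per the submitters' processing notes. How barcodes were kept and whether strand was used are not given in the sources used here. The matrix held 32285 genes, 2 tags and 2237 barcodes, and the 2 tags were CD9 and CD206, of which CD206 was not used here. Tag barcodes, in a sequence column of another unit in the deposited feature table, were read only to print them.

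A barcode needed 200 genes or more and no more than 10% of mitochondrial UMIs (2215 passed). Scrublet in scanpy 1.11.5 marked 7 of them (0.316%) as doublets by its automatic threshold, so the 40 with the highest scores (0.8% per 1000 barcodes) were removed, which left 2175 cells with a median of 19348 UMIs (504 to 179141). Macrophages had a C1qa, C1qb and C1qc sum of at least 2000 CPM. Of the other cells, lymphocytes (T, NK and B lists), dendritic cells and monocytes had at least 500 CPM of their list from at least 2 of its genes, by the highest sum. Levels are UMIs summed over cells per 1000000 UMIs (CPM). Intervals are exact at 95%, by the conditional binomial for ratios, Poisson for sums and Clopper-Pearson for shares, and cover counting error only. A ratio was called at 1.5-fold where both sums held 20 UMIs or more together, and a sum of 0 was set to 3 UMIs. Detection was compared after hypergeometric thinning to 5000 UMIs per cell. With 1 sample there was no test. The ratio step was tested on simulated data. Named were the 10 genes, the other listed CC ligands and receptors with at least 20 UMIs in a class, and up to 3 genes with r of at least 0.3 among genes with at least 1000 macrophage UMIs. Of the receptors this names, 1 is not reported here. The genes, lists and rules were chosen with earlier results of these data known. Alternatives changed the C1q and marker limits, the gene minimum, doublet removal, the UMI minimum, the weighting of cells, the CD9 ranking and deciles, the thinning depth and the cells with most UMIs of a gene. Promoters and gene spans came from RefSeq tables of GRCm38.p6.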

Additional observations from a re-analysis of the deposited data

How the results depend on the processing

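Over 17 alternatives, 257 ratios of single genes were recomputed, 11 calls changed and none changed direction. The count of genes higher in macrophages was 8 or 9 of 10 against lymphocytes and 7 to 9 against dendritic cells, and the count with 50% of their UMIs in at most 5% of macrophages was 5 in every alternative run on it. Comparing the highest and lowest 5 deciles of CD9 tag, 1 member was called higher in CD9-high macrophages instead of 0, Ccl22 with a log2 ratio of 0.61, and the count lower in CD9-high macrophages was 3 to 5 over all alternatives. Ccl8 was called higher than in lymphocytes and dendritic cells when the C1q limit was 5000 CPM (log2 ratios of 0.82 and 0.73, both bounds). That call rests on 1 cell, because 1 macrophage had 91 of the 104 Ccl8 UMIs at the main limit. The 13 UMIs left without it are fewer than the 20 needed for a comparison. The share of Ccl3-positive macrophages with Ccl4 was 84.1% at 2000 UMIs, 94.7% at 10000 UMIs and 96.8% without thinning, against 90.4% at 5000 UMIs. Over 10 random draws at 5000 UMIs it ran from 89.1% to 91.6%. No paired analysis was possible because the series holds 1 sample. Depth limits Ccl8 and the comparisons with 140 lymphocytes, 45 dendritic cells and 21 monocytes, and with 1 pooled sample no interval covers the spread between mice.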
